A study of Gallus gallus with 2 samples.

Results

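The genes described here encode the nuclear subunits of the 5 oxidative phosphorylation complexes of the mitochondrion, measured in 2 excised regions of the early chick embryo. Members were taken by gene symbol alone, as every probe set whose single annotated symbol began with NDUFA, NDUFB, NDUFC, NDUFS, NDUFV, UQCR, ATP5 or COX4 to COX8, or was a succinate dehydrogenase subunit or CYC1. This gave 133 probe sets for 74 genes, of 38382 probe sets and 13009 genes analysed. By symbol, 34 genes belonged to complex I, 2 to complex II, 8 to complex III, 8 to complex IV and 13 to complex V. The symbol prefixes also took in 8 NDUFAF genes, which encode assembly factors of complex I, and ATP5S, known as coupling factor B. These 9 genes are not subunits. They are counted among the members in the totals and figures, and their own values are described separately. Other genes of the RefSeq gene table that fit the symbol rule, among them ATP5D, ATP5L, COX7A2, NDUFB11, SDHB and SDHC, were not analysed here.

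Oxidative phosphorylation makes ATP in the inner mitochondrial membrane. Complexes I and II take electrons from NADH and succinate, complex III passes them on through cytochrome c, and complex IV hands them to oxygen. Complexes I, III and IV pump protons across the membrane, and complex V, the ATP synthase, uses the return of these protons to make ATP. Most subunits are encoded in the nucleus and some in the mitochondrial genome, and no probe set on the array carried a mitochondrial gene's symbol from the list searched.

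The data were 2 GeneChip Chicken Genome arrays, 1 for each tissue, with no replicate. All embryos, incubated at 37.5 ºC over some 12 h, had received pCer2.5-EGFP by electroporation at HH3, a plasmid in which 2.5 kb of Cerberus upstream sequence drives green fluorescent protein. The HFR sample was the fluorescent heart forming region and the PPP sample the posterior part of the primitive streak, both cut out at stage HH4 to HH4+ (another label gives HH4-5). The strain and the number of embryos pooled are not given in the sources used here, and EGFP marks only cells that took up the plasmid. RNA was amplified over more than 1 round before hybridization, with poly-A spike-in controls added. Levels are model-based expression indices (MBEI), probe set intensities on a linear scale, and most are followed by their model standard error after ±. That error comes from the model, which was fitted over 6 arrays, and holds no variation between embryos, so no difference below has a replicate check, and no p-value is given.

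Several genes that bear on the labels lay opposite to them, and the streak markers were mixed. CER1, the gene whose fragment drove the EGFP, read 108.3 ± 19.2 MBEI (marginal call) in the HFR sample and 420.2 ± 193.3 in the PPP sample. TBXT, a T-box factor of the streak, read 7128.6 ± 80.7 and 3691.4 ± 147.1. Of 9 passing streak markers 6 were present on both arrays, 3 of them above 0 and 3 below, toward the PPP label. The other 3 (CDX2, EVX1 and FGF8) passed the level filter through 1 array alone, which fixed their direction. FGF8 (62.2 ± 5.8 MBEI, absent, and 282.1 ± 16.5), CDX4 (1861.4 ± 69.2 and 3528.2 ± 36.6) and WNT8A (705.6 ± 37.7 and 1015.1 ± 0.2) were higher in the PPP sample, as labelled, while WNT3A read 1200 ± 33 and 189.8 ± 7.7. The 5 heart field markers present on both arrays (MYL4, ACTC1, TNNT2, GATA5 and GATA6) were lower in the HFR sample. Another 4 (NKX2-5, ISL1, MYOCD and HAND2) passed the level filter through the PPP sample alone, which fixed their direction. The rest of the 13 heart field markers did not pass, with TBX5, TBX20 and MEF2C absent on both arrays and GATA4 too dim. The arrays are therefore named HFR-labelled and PPP-labelled throughout. The extraembryonic endoderm markers differed in the other direction, with 3 of the 4 present on both arrays past 2-fold toward the HFR-labelled array (FGB, APOA1 and RBP4A), 4 more that passed through that array alone, and a summed level over all 13 of 10781.2 against 2193.0 MBEI. Among those 13, AFP, AMN, APOB and CUBN were absent on both arrays. The blood and endothelial markers summed to 2052.7 and 4407.4 MBEI over 9 genes. The 4 present on both arrays (TAL1, SOX7, KDR and FLI1) were lower on the HFR-labelled array. CDH5 and FLT1 passed through the PPP-labelled array alone, which fixed their direction, and HBZ, GATA2 and LMO2 were absent on both. Of 4 neural ectoderm markers past the filter, all present on both arrays, 1 (SOX3) lay above 0 and 3 (ZIC2, GBX2 and OTX2) below. The part of these tissue differences in the values below was not tested. In such pieces of tissue, fewer cells of a type and less RNA per cell cannot be told apart.

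Transcripts of the oxidative phosphorylation genes were detected on both arrays, and their levels lay close together. A present call was given to 99 of the 133 probe sets (74.4%) on the HFR-labelled and to 107 (80.5%) on the PPP-labelled array, against 38.4% and 42.2% of all probe sets. Each gene was then represented by its probe set of highest mean level, and 70 of 74 genes were present on both arrays. The level filter kept a gene called present, at 70.8 MBEI or more, on whichever array read it brighter, and this minimum is the probe sets' median brighter value. In all, 71 of 74 genes passed. The exceptions were COX7B (29.6 and 33.1 MBEI, absent on both arrays), ATP5J (45.1 and 39.6 MBEI) and ATP5G2 (68.3 and 56.6 MBEI, absent on the PPP-labelled array).

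Of the 71 passing genes, 1 passed 2-fold toward the HFR-labelled array, against 3.86% of all 7389 passing genes, and 0 passed it toward the PPP-labelled array, against 4.25%. At 1.5-fold there were 2 members in each direction, against 9.43% and 13.0% of all genes. The genes at 1.5-fold were NDUFA5 and NDUFA7 toward the HFR-labelled array and NDUFB2 and NDUFB9 toward the PPP-labelled array, each a subunit of complex I. The median log2 difference, HFR-labelled minus PPP-labelled, was -0.06 over the 71 members and -0.05 over all passing genes. Of the 71 members, 66 (93.0%) lay within 0.5 on the log2 scale of 0, against 72.0% of all passing genes. The SD across genes was 0.29 for the members and 0.63 for all passing genes, where genes are not independent replicates. Summed over the 71 representing probe sets, the level was 170239.3 MBEI for the HFR and 172348.1 MBEI for the PPP label, a ratio of 0.988. These differences are on the authors' scale. With the poly-A spike-ins set equal the median of all passing genes moved to 1.22 and that of the members to 1.21, so each direction below is relative to the other genes of the array.

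**Figure D1:**
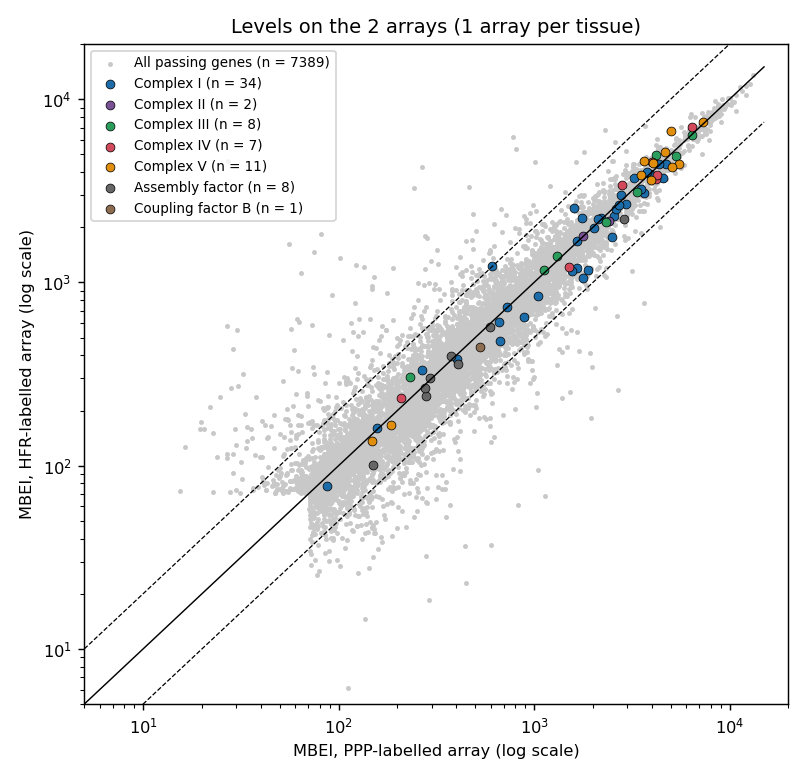
Levels of the 7389 genes past the level filter on both arrays, with MBEI on the PPP-labelled array on the x axis and on the HFR-labelled array on the y axis (log scales, 1 array per tissue). Coloured points are the 71 passing oxidative phosphorylation genes by complex, the solid line marks equal levels and the dashed lines 2-fold, and 1 coloured point (NDUFA5) lies on the upper dashed line.

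The members were bright, and 71.8% of them reached 1000 MBEI on the brighter array, against 26.9% of all passing genes. Restricting all genes to those at 1000 MBEI or more, a threshold chosen after the data were seen, gave 1989 genes. Of these, 3.57% passed 2-fold toward the HFR label and 1.96% toward the PPP label, against 1 and 0 of 51 members. Within 0.5 of 0 lay 81.1% of these 1989 genes and 92.2% of the 51 members. The SD across genes was 0.61 and 0.31. The model standard error of a member's log2 difference was small, with a median of 0.07, and 43 of 71 differences exceeded 2 model standard errors. These were 16 toward the HFR-labelled array, against 30.9% of all genes, and 27 toward the PPP-labelled array, against 38.7%. ATP5E, among these 27, passed the filter through the PPP-labelled array alone. Without replicates the size of the difference between embryos is not known, so these 43 genes are given as a count alone.

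**Figure D2:**
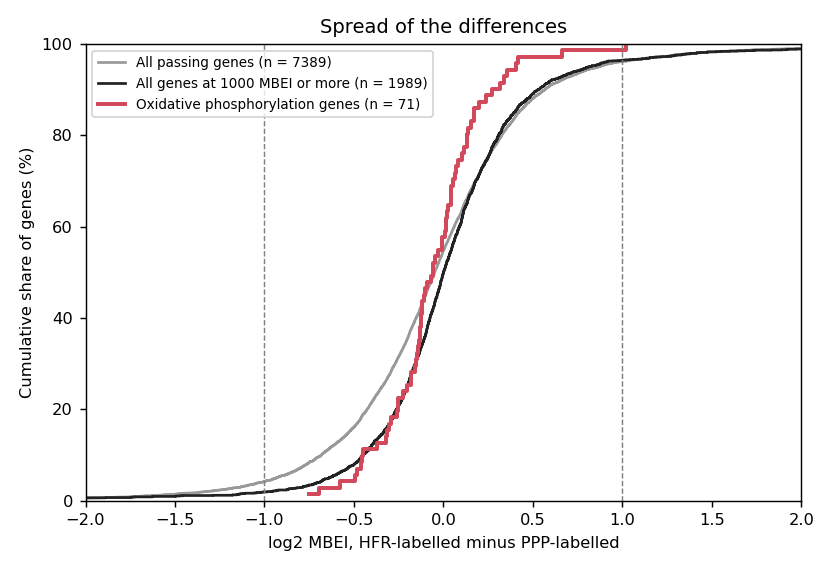
Cumulative share of genes by log2 difference, HFR-labelled minus PPP-labelled, for all 7389 passing genes (grey), the 1989 genes at 1000 MBEI or more (black) and the 71 oxidative phosphorylation genes (red). The red curve is the steepest of these 3, with 93.0% of the members within 0.5 of 0, and dashed lines mark 2-fold.

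Complex I held the members farthest from 0 in both directions. It is an L-shaped enzyme with a peripheral arm in the matrix, where NADH is oxidised, and a membrane arm that pumps protons. All 34 genes assigned to it passed, and their median log2 difference was -0.07 with a range from -0.75 to 1.02. NDUFA5, an accessory subunit of the peripheral arm, read 1232.9 ± 54.3 MBEI on the HFR-labelled and 608.1 ± 28.2 on the PPP-labelled array, 2.03-fold higher on the former. Its log2 difference of 1.02 had a model standard error of 0.09 and came from the 1 probe set for that gene. It therefore lay at the 2-fold threshold within its error, and with a pseudocount of 22.3 MBEI it was 0.99. NDUFA7, another accessory subunit, read 2537.7 ± 25.6 and 1604.6 ± 28.9 MBEI, a log2 difference of 0.66. Its other passing probe set gave 0.34 in the same direction. NDUFA6 read 2237.8 ± 75.9 and 1752.2 ± 26.1 MBEI, a log2 difference of 0.35, and NDUFS4, an iron-sulfur fraction subunit needed for a stable enzyme, read 332 ± 19.5 and 266.8 ± 7.2, a difference of 0.32.

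The 3 lowest differences of complex I were in the membrane arm. NDUFB2 read 1054.5 ± 18 MBEI on the HFR-labelled and 1778.4 ± 54.7 on the PPP-labelled array, a log2 difference of -0.75. NDUFB9 read 1168.7 ± 73.7 and 1889.9 ± 74.5 MBEI, a difference of -0.69. NDUFB6 read 1779.2 ± 88.4 and 2505 ± 42, a difference of -0.49. All 3 are accessory subunits of the distal membrane arm, and each lay under 2-fold. NDUFB7 (476.8 ± 16 and 667 ± 25.7 MBEI) and NDUFA1 (1149.4 ± 32 and 1570.1 ± 63.1 MBEI), also of the membrane arm, had differences of -0.48 and -0.45. The peripheral arm genes NDUFV1 (-0.46) and NDUFV3 (-0.45) lay between NDUFB7 and NDUFA1.

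The arms of complex I were compared by counts, in a grouping made after the values were seen. Of 15 peripheral arm genes 6 lay below 0 with a median of 0.02, and of 17 membrane arm genes 13 lay below 0 with a median of -0.14. NDUFS5, among these 13, passed the level filter through the PPP-labelled array alone, which fixed its direction. The NDUFB genes alone had 9 of 10 below 0, and a median of -0.20. Of all passing genes 54.8% lay below 0. The counts moved with the scaling, since median centring left 4 of 15 and 12 of 17 below 0, quantile normalization 8 of 15 and 14 of 17, and equal spike-ins 0 in both arms. Median centring and equal spike-ins shift every gene alike, so they could not change the order of the arm medians. Under quantile normalization the membrane arm kept the lower median, -0.18 against -0.01 for the peripheral arm. The difference between the arms was not tested. The counts also depended on the choice of probe set. Once those with an s, x or a suffix were dropped, 3 of 9 peripheral arm and 5 of 8 membrane arm genes lay below 0, and 4 of 6 NDUFB genes.

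Of 6 core subunit genes of the peripheral arm, 5 were close to equal on both arrays by their brightest probe set. NDUFS1, the largest core subunit, read 2235.8 ± 42.3 and 2206.3 ± 82.8 MBEI, but its other probe sets gave log2 differences of -0.43 and 0.42. NDUFS7 and NDUFS8, which carry iron-sulfur clusters near the quinone site, read 2517.1 ± 55 and 2620.8 ± 52 MBEI, and 735.4 ± 14.6 and 728.8 ± 18.5 MBEI. NDUFV2 read 1691.7 ± 82.8 and 1663.8 ± 34.5, and NDUFS3 161.2 ± 8.3 and 156.6 ± 4.5 MBEI. By the brightest probe set these 5 genes had log2 differences between -0.06 and 0.04. NDUFV1, which binds NADH and the flavin, was the exception at 1202.1 ± 30.2 and 1656 ± 67.5 MBEI, a log2 difference of -0.46. NDUFV3, an accessory subunit beside it, had -0.45. These core subunit genes were picked after their values were seen.

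The remaining genes assigned to complex I lay between -0.31 (NDUFA2) and 0.20 (NDUFA11). NDUFAB1, the mitochondrial acyl carrier protein found in both arms, read 3880.9 ± 218.1 and 3900.9 ± 226.8 MBEI, a log2 difference of -0.01. NDUFA4 is placed here by its symbol, although in mammals the protein is now counted with complex IV, and it read 4407.5 ± 110.1 and 4725.9 ± 228.2 MBEI, a difference of -0.10. NDUFS5 passed the level filter through the PPP-labelled array alone, called absent on the HFR-labelled array (77 ± 6.2 MBEI) and present on the PPP-labelled array (87.4 ± 5.8 MBEI).

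**Figure D3:**
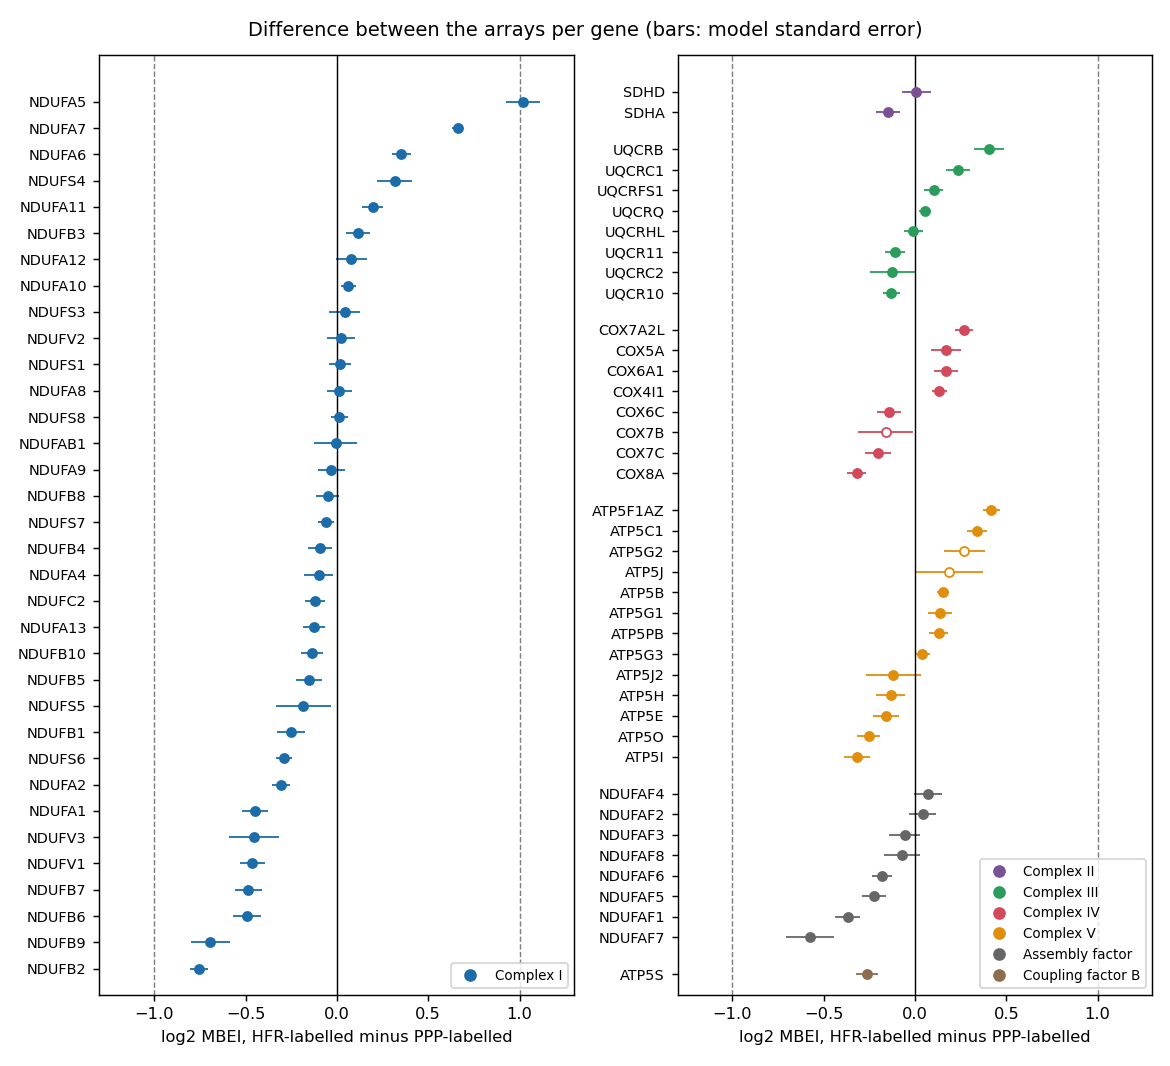
Log2 difference of each of the 74 genes, HFR-labelled minus PPP-labelled, by complex, with bars for the model standard error. Filled points passed the level filter, the 3 open points (COX7B, ATP5G2 and ATP5J) did not, dashed lines mark 2-fold, and the genes run from -0.75 (NDUFB2) to 1.02 (NDUFA5).

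The assembly factors of complex I, which help to build the enzyme and are not part of it, all passed the filter. Of 8 genes 6 lay below 0, against 54.8% of all passing genes, and their median log2 difference was -0.12, against -0.05. The count moved with the scaling, since NDUFAF3 turned to 0.003 with median centring and NDUFAF8 to 0.03 with a subtracted loess trend. NDUFAF7, a mitochondrial methyltransferase, read 100.9 ± 8.5 and 150.4 ± 5.1 MBEI, a difference of -0.58 and the lowest of the 8. NDUFAF1, a chaperone for the membrane arm, read 2232 ± 86.5 and 2883.2 ± 84.6, a difference of -0.37. The other 6 lay between -0.22 (NDUFAF5) and 0.07 (NDUFAF4). ATP5S read 442.2 ± 13.1 and 529.9 ± 15.6 MBEI, a difference of -0.26.

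Complex II, which also works in the TCA cycle as succinate dehydrogenase, had 2 genes on the array. SDHA, the flavoprotein that oxidises succinate, read 2169.5 ± 83.1 MBEI on the HFR-labelled and 2403.5 ± 51.1 on the PPP-labelled array, a log2 difference of -0.15. SDHD, a membrane anchor, read 1781.3 ± 86 and 1771.4 ± 48.1 MBEI, a difference of 0.01. Neither reached 2-fold, and SDHB and SDHC were not analysed here.

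All 8 genes of complex III passed, and 4 lay on each side of 0 with a median of 0.02. UQCRB, the ubiquinone binding protein, had the highest difference at 306.1 ± 14.5 and 231.3 ± 6.8 MBEI (0.40), and its 3 probe sets all lay above 0. The core protein UQCRC1 read 4928.4 ± 171.9 and 4179.3 ± 122.9, a difference of 0.24. UQCRFS1, the Rieske iron-sulfur protein, read 1398.2 ± 22 and 1303 ± 43.8, a difference of 0.10. These 3 were slightly higher on the HFR-labelled array, and none of the 8 reached 1.5-fold. UQCRQ had a difference of 0.05 (1173.1 ± 26.3 and 1129.4 ± 6.5 MBEI). UQCRHL, the gene of the hinge protein, read 6393.4 ± 127.2 and 6432.8 ± 190.2 MBEI, a difference of -0.01. UQCR11 (3121.9 ± 92 and 3367.3 ± 80.3 MBEI), the core protein UQCRC2 (2136 ± 167 and 2326.3 ± 76.3) and UQCR10 (4867.2 ± 114 and 5322.7 ± 107.9) lay between -0.13 and -0.11. Dimmer passing probe sets of UQCRC2 and UQCR10 gave -0.55 and -0.30.

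In complex IV, cytochrome c oxidase, which reduces oxygen to water, 7 of 8 genes passed and their differences ran from -0.32 to 0.27 with a median of 0.13. COX4I1, the regulatory subunit that binds ATP, read 7013.6 ± 180.5 MBEI on the HFR-labelled and 6391.1 ± 101.1 on the PPP-labelled array, a log2 difference of 0.13. COX7A2L, which in mammals links complexes III and IV into supercomplexes, read 3399.1 ± 66 and 2822 ± 81.2, a difference of 0.27. COX6A1 read 4517.1 ± 107.8 and 4019.4 ± 158.1, and COX5A 233.3 ± 5.9 and 207.4 ± 10.5 MBEI, each with a difference of 0.17. These 4 lay above 0, and the other 3 below it, although COX5A turned to -0.10 when its probe sets were summarised by their median. COX8A read 1215.5 ± 23.2 and 1517.3 ± 47.1 (-0.32), COX7C 3648.4 ± 118 and 4199.6 ± 152 (-0.20) and COX6C 3856.6 ± 151.9 and 4256.8 ± 102 (-0.14). With so few genes the median depended on the choice of probe set, and was -0.32 once those with an s, x or a suffix were dropped and -0.10 when all passing probe sets of a gene were summarised by their median. A probe set annotated to both COX7A2 and TMEM30A was left out by the rule, and read 24 (absent) and 50.8 MBEI.

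In complex V, 11 of 13 genes passed and their differences ran from -0.32 to 0.42 with a median of 0.04. Its F1 head holds the catalytic sites. ATP5F1AZ, the alpha subunit encoded on the Z chromosome, read 6712.5 ± 154.4 MBEI on the HFR-labelled and 5025 ± 116.3 on the PPP-labelled array, a log2 difference of 0.42. ATP5C1, the rotating gamma subunit, read 4602.5 ± 132.7 and 3639.3 ± 95 (0.34), and the catalytic beta subunit ATP5B 4499.8 ± 67.7 and 4048.4 ± 67 (0.15). These 3 head subunits were higher on the HFR-labelled array and under 1.5-fold, although ATP5C1 lay at -0.74 when its probe sets were summarised by their median. ATP5E, the epsilon subunit, was called absent on the HFR-labelled array (166.3 ± 3.2 MBEI) and present on the other (185.4 ± 8.3 MBEI), a difference of -0.16. It passed the level filter through the PPP-labelled array alone, which fixed its direction.

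The stalk and membrane subunits of complex V lay mostly below 0. ATP5I, the e subunit, read 4419.2 ± 112 and 5501.6 ± 233.6 MBEI, a log2 difference of -0.32, and ATP5O, the stalk subunit that confers oligomycin sensitivity, read 4249.3 ± 121.8 and 5066.5 ± 163.6, a difference of -0.25. ATP5H (3614.8 ± 194.3 and 3961.3 ± 47.1 MBEI) and ATP5J2 (136.6 ± 9 and 148.2 ± 11.7) had -0.13 and -0.12. ATP5PB, the b subunit of the stator stalk, lay above 0 at 3856.1 ± 100.2 and 3525.4 ± 90.4 MBEI (0.13). Of these 5 genes 4 lay below 0, against 54.8% of all passing genes, and none of them reached 1.5-fold. ATP5J2 had 4 passing probe sets, 2 above 0 and 2 below, from -0.45 to 0.03.

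The c subunit ring of complex V is encoded by a set of related genes, which in mammals give the same mature protein. ATP5G3 read 7491.4 ± 184.5 MBEI on the HFR-labelled and 7284.1 ± 122.2 on the PPP-labelled array, a log2 difference of 0.04. ATP5G1 read 5143.4 ± 133.6 and 4677.8 ± 164.9, a difference of 0.14. ATP5G2 was called present on the HFR-labelled array alone and did not pass the level filter. Both passing paralogs lay within 1.5-fold of equal. Probe sets of different genes respond differently, so their levels are not compared with each other.

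Probe sets of the same gene often lay on different sides of 0. More than 1 probe set passed for 17 genes, of which 9 had every one on the same side of 0, against 1540 of 2438 among all genes. The median range within a gene, highest minus lowest passing probe set, was 0.28, against 0.37 among all genes. The SD across members was 0.29, but a range and an SD are unlike measures and are not compared. ATP5C1 was the 1 gene whose passing probe sets differed by more than 1. Besides the probe set given above, a dim one read 33.8 ± 5.4 MBEI on the HFR-labelled and 119 ± 6.9 on the PPP-labelled array, both called present, a log2 difference of -1.82. It was one of 2 member probe sets past the filter at 2-fold, and the other was that of NDUFA5. NDUFS1 had probe sets at -0.43, 0.02 and 0.42, and NDUFB8, a membrane arm subunit, at -0.05 and 0.55. Dimmer probe sets of COX5A and COX6C gave -0.36 and -0.70, against 0.17 and -0.14 for the brighter ones. Below the filter, 2 dim probe sets also passed 2-fold, 1 of ATP5J (36.3 ± 3.5 and 16.4 ± 2.4 MBEI, a difference of 1.15) and 1 of NDUFAF4 (15.7 ± 2, absent, and 37.5 ± 2.2 MBEI). The 2 passing probe sets of NDUFAF4 gave 0.07 and 0.08, and another probe set, absent on the HFR-labelled array, read 199 ± 12.1 and 126.1 ± 2.3 MBEI. Of the 71 representing probe sets, 40 carried a suffix (s, x or a), which marks probes that match several transcripts or other sequences. Control probe sets at the 3' end read brighter than those at the 5' end. For actin the ratio was 4.92 on the HFR-labelled and 5.08 on the PPP-labelled array, and for GAPDH 1.96 and 2.79. The part of this imbalance in the differences between probe sets or genes was not tested.

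**Figure D4:**
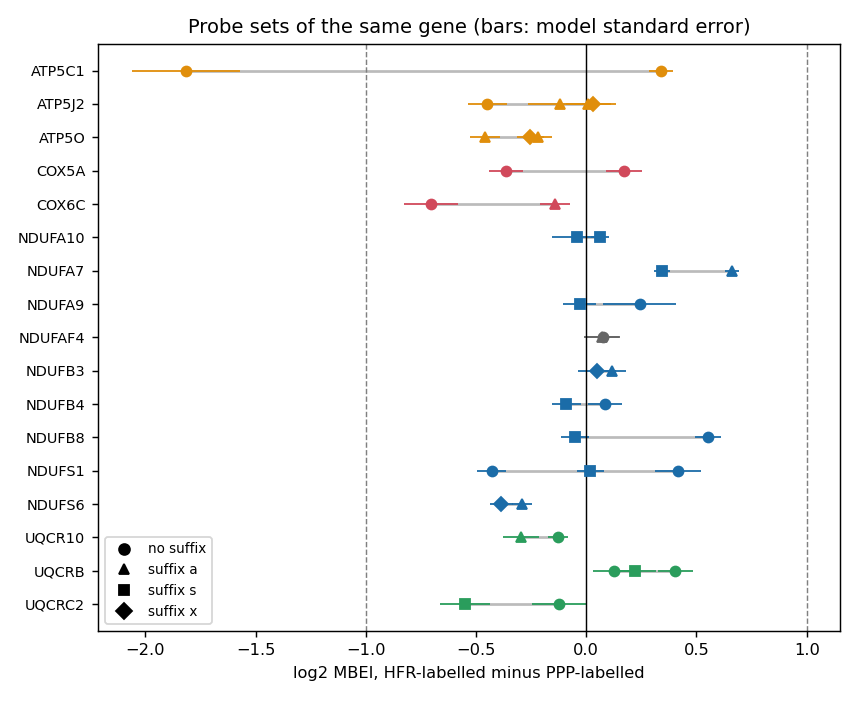
Log2 difference of each passing probe set, HFR-labelled minus PPP-labelled, for the 17 genes with several of them, with bars for the model standard error and marker shape for the probe set suffix. Grey lines join probe sets of 1 gene, dashed lines mark 2-fold, and the widest gap is that of ATP5C1, from -1.82 to 0.34.

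Of the members, 5 are encoded on the Z chromosome, which is present as 1 copy in female and as a pair in male birds. ATP5F1AZ, NDUFS4 and NDUFAF2 had log2 differences of 0.42, 0.32 and 0.04, and COX7C and ATP5I of -0.20 and -0.32. All 344 passing Z-linked genes had a median of -0.09 and the 6974 autosomal genes one of -0.05. The Z-linked members thus lay on both sides of these medians. The W-linked copy of the alpha subunit, ATP5F1AW, was not analysed here, and whether the probes of ATP5F1AZ bind its transcripts was not tested.

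Genes that build, feed or regulate these complexes were set beside them from lists chosen with earlier results of these data known. Of 29 further assembly genes past the filter, 22 (75.9%) lay below 0, against 54.8% of all genes, and the median log2 difference was -0.32, against -0.05. SDHAF1 and TMEM186, among the 22, were absent on the HFR-labelled array and passed through the other alone. COX11, a copper chaperone for complex IV, was the 1 of them at 2-fold, and read 76.1 ± 6.8 MBEI on the HFR-labelled and 182.6 ± 8.6 on the PPP-labelled array, 2.40-fold higher on the latter. TIMMDC1, a membrane arm assembly factor (521.2 ± 45.9 and 880.5 ± 40.2 MBEI), and TMEM70, an assembly factor of complex V (777 ± 33.2 and 1292.7 ± 33.4), had -0.76 and -0.73. ATPAF1, a chaperone of the F1 head, lay the other way at 433.3 ± 13.6 and 235.3 ± 5.9 MBEI (0.88), as did the complex I assembly factor ACAD9 (0.70). The 1 of 29 at 2-fold toward the PPP label (3.45%) is near the 4.25% over all genes.

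Carriers and enzymes next to the respiratory chain lay near 0 at the median. In these lists 0 genes reached 2-fold, against 3.86% of all genes toward the HFR label and 4.25% toward the PPP label. Cytochrome c (CYCS), which shuttles electrons from complex III to IV, read 4679.1 ± 181.1 and 4705 ± 205.4 MBEI, a log2 difference of -0.01. The ADP/ATP translocases SLC25A4 and SLC25A5 had 0.59 and 0.42, while SLC25A6 had -0.04 (10575.9 ± 150.3 and 10844.7 ± 164.3 MBEI). VDAC1, a channel of the outer membrane, read 1787.9 ± 20.9 and 960.3 ± 24.8 (0.90). Over 10 passing carrier and exchange genes the median was 0.00. The 11 coenzyme Q genes had a median of -0.13, from -0.68 (PDSS1) to 0.88 (COQ8A). Of these, 9 were present on both arrays, 4 above 0 and 5 below. COQ2 and COQ4 passed through the PPP-labelled array alone, which fixed their direction, and COQ2 was the median gene. The 13 genes of the TCA cycle and pyruvate dehydrogenase had 0.12, from -0.76 (SUCLA2) to 0.58 (PDHB), and the 17 genes of mitochondrial import -0.08, from -0.67 (TIMM22) to 0.43 (TOMM20).

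The next list held regulators of mitochondrial biogenesis and genes that copy or transcribe mitochondrial DNA. Among its 14 genes past the filter, 12 (85.7%) lay within 0.5 of 0 on the log2 scale, against 72.0% of all passing genes. PPARGC1A, the coactivator known for driving respiratory gene expression, read 235.7 ± 5.9 MBEI on the HFR-labelled array and 37.8 ± 8.2 with an absent call on the PPP-labelled array, a fold of at least 6.24 toward the former. Its other probe set was absent on both arrays (56.1 ± 2.5 and 39.8 ± 2.2 MBEI). NRF1 (136.8 and 126 MBEI), GABPA (2063 and 1956.8), GABPB1 (1248.3 and 1195.6) and TFAM (3326 and 3216.9), factors that switch on respiratory chain genes or mitochondrial DNA, had log2 differences between 0.05 and 0.12. POLG2, the accessory subunit of the mitochondrial DNA polymerase, had -0.82 (399.3 ± 12.5 and 703.9 ± 20 MBEI). Of 14 passing genes 1 was at 2-fold, toward the HFR label, against 3.86% of all genes, and the median was 0.06. That gene, PPARGC1A, passed through the HFR-labelled array alone, which fixed its direction. Of the 13 genes present on both arrays 0 reached 2-fold. On the same arrays the oxidative phosphorylation genes had a median of -0.06, and a link between their levels and PPARGC1A was not tested.

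Among the glycolysis and lactate genes, 4 of the 17 past the level filter reached 2-fold toward the HFR label, against 3.86% of all genes, and 0 toward the PPP label, against 4.25%, and the median log2 difference was 0.30. The 4 were lactate dehydrogenase LDHA (3.74), the hexokinase HK1 (1.60, with all 3 of its probe sets above 1), the glucose transporter SLC2A1 (1.40) and PDK1 (1.04). PDK1, the kinase that holds back pyruvate dehydrogenase, read 1080.6 ± 47.5 and 525 ± 29.2 MBEI, and its other probe set gave 0.70. All 17 were present on both arrays, and 14 of them lay above 0 and 3 below. Of all passing genes 54.8% lay below 0. Next after the 4 were SLC16A3 (0.82), PFKP (0.80) and PFKL (0.78). LDHB, the other lactate dehydrogenase subunit, read 8102.5 and 8807.3 MBEI, a difference of -0.12, and was among the 3 below 0. GAPDH and ENO1 had 0.21 and 0.22. Whether these lists differ from each other was not tested.

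**Figure D5:**
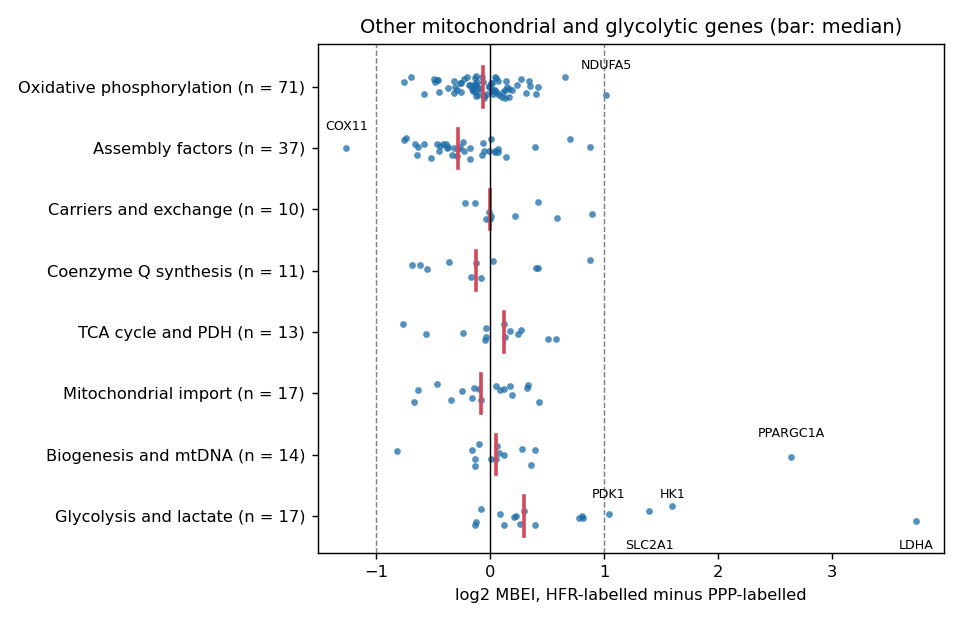
Log2 difference of each passing gene, HFR-labelled minus PPP-labelled, for the 71 oxidative phosphorylation genes and 7 other lists, with the median of each list as a red bar and vertical jitter added. The assembly list shown includes the NDUFAF genes (37 in all), dashed lines mark 2-fold, and the named genes are those past it.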

How the data were processed

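Per the series' design text, the authors scaled each array to a baseline array of median intensity by an invariant probe set method. They then fitted perfect match probes of 6 arrays together, the 2 used here and 4 of another study. The deposited intensity (MBEI) was used as given, with its detection call and model standard error (per the file headers). The submitters' processing notes name GCOS 1.3, and the sources used here do not name the program of the model fit. The 12 columns of the other study were not used. An invariant set scale cannot show a change in total RNA per cell.

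Of 38535 probe sets, 153 controls were left out. Symbols came from the platform annotation, updated by gene ID with a RefSeq table of GRCg7b, which changed no member's symbol (132 of 133 IDs matched). Several symbols were listed for 177 probe sets and none for 11037. A value of 0 was set to 0.1. Log2 differences are HFR minus PPP, and standard errors were propagated from both arrays. For a gene whose dimmer array lacked a present call, the fold is a lower bound, taken over the dimmer reading or that array's smallest present MBEI (6.5 or 4.8), whichever was larger. With 1 array per tissue no test was run, and precision is limited by that number. The code was tested on simulated data. Pandas 2.3.3 and statsmodels 0.14.6 were used.

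The members and lists were chosen with earlier results of these data known. Genes named were members at 2-fold, the 3 highest and 3 lowest of complexes I, IV and V, all of complexes II and III, genes with disagreeing probe sets, paralogs, and list genes at 2-fold with up to 3 more. Others were chosen after their values were seen. Promoter motifs were not analysed, since no sequence table was used here.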

Additional observations from a re-analysis of the deposited data

How the results depend on the processing

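The count of 1 gene past 2-fold toward the HFR label was 0 with a pseudocount of 22.3 MBEI, and 2, 16 and 58 at 1.5-fold, over 2 model standard errors and with the poly-A spike-ins set equal. The count of 0 toward the PPP label was 2 at 1.5-fold and 27 over 2 model standard errors. The median of -0.06 was 1.21 with the spike-ins set equal, since the 12 spike-in probe sets had a median log2 difference of -1.27 (from -1.54 to -0.87). That scaling moved the median of all passing genes to 1.22, so the members moved with the rest. Under the other settings both counts and the median kept their values within 1.5 times or 0.07. These were centring on the median, a subtracted loess trend, quantile normalization, no level filter or a stricter one (178.6 MBEI), presence on both arrays, other choices of probe set, a relative error under 30%, symbols not updated, subunits alone, the series' value table and a filter at 1000 MBEI added after the data were seen. Leaving out the spike-in scaling, 13 of 996 single gene values moved beyond their error and 10 of 102 complex medians beyond a tolerance. No error was computed for these medians, and the tolerance came from the genes' model standard errors. The filters, the value table and the symbols not updated leave a gene's own value as it was, so these settings could not move it. Of the moved gene values, 6 came with the median over passing probe sets (65 stayed). Another 6 came without the s, x and a suffixes (31 stayed), and 1 with median centring. No paired analysis was possible because each group held 1 array. Low signal limits COX7B, ATP5J, ATP5G2, NDUFS5 and ATP5E, absent on 1 or both arrays or near the filter, and the mitochondrial genome's own subunits were not analysed here.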
